A study of Danio rerio with 4 samples.

Results

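The potassium channel genes of zebrafish were examined in RNA sequencing of cells sorted from adult brain. They were taken as the Ensembl gene IDs whose symbol begins with kcn, further letters and a number, which gave 124 of the 32105 IDs in the count table. KCNJ8 and KCNE4, which belong to the same family and are used as pericyte markers, were left out of the 124. By gene name the members fall into 28 inward rectifier genes (kcnj), 21 two-pore genes (kcnk), 9 calcium-gated genes (kcnma, kcnn and the sodium-activated kcnt) and 51 voltage-gated genes (kcna, kcnb, kcnc, kcnd, kcnf, kcng, kcnh, kcnq, kcns and kcnv). The auxiliary subunits were kept apart, as 3 genes for calcium-gated channels (kcnmb) and 12 for voltage-gated channels (kcnab, kcnip). The study holds a single group of 4 libraries, each from 6 pooled brains of adult wild-type fish that carry EGFP under pdgfrb control. EGFP-positive cells were sorted after Liberase digestion, and their RNA was amplified before sequencing. Titles and source names call the cells pericytes, while a cell type tag reads muLEC (mural lymphatic endothelial cell, of the meninges). The design text speaks of triplicates where 4 samples are listed. A sort on this transgene takes whatever cell drives it, and the labels do not say how far the pools were separate beyond their brains, so p-values measure the spread between these 4 pools only, which may be technical.

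Potassium channels let potassium leave or enter the cell along its gradient and so set the resting potential and end electrical activity. Inward rectifiers pass current best near the resting potential and carry potassium uptake by glia, two-pore channels give a steady leak, calcium-gated channels open when cytosolic calcium rises, and voltage-gated channels open on depolarisation and repolarise neurons. In mural cells of mammalian brain vessels, channels of the inward rectifier and calcium-gated classes are known for linking metabolism and calcium to the membrane potential and so to vessel tone.

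The table names its columns B1 to B4, and since these match no sample number, the libraries keep those names. Total counts ran from 33270774 to 40441253, and values are given as CPM, which are counts divided by the library total and scaled by TMM factors, where 3 counts correspond to 0.0751 to 0.0879 CPM. B1 stood apart from the rest, since the common coefficient of variation between libraries was 0.538 with all 4, 0.331 without B1 and 0.546 to 0.567 without any other library. By lists of markers, pericyte genes summed to 1101 to 2239 CPM over 19 IDs. These IDs were uneven, with means from 319 CPM for KCNE4 to 1.19 CPM for CSPG4 and 0.0146 CPM for foxf2a. Radial glia genes summed to 23845 to 44995 CPM over 15 IDs, oligodendrocyte genes to 1407 to 4061 CPM over 10 IDs and neuron genes to 183 to 879 CPM over 18 IDs. Lymphatic and muLEC genes summed to 196 to 352 CPM over 8 IDs, smooth muscle genes to 472 to 910 CPM over 13, fibroblast genes to 1166 to 5539 CPM over 12, endothelial genes to 51.9 to 333 CPM over 11 and microglia genes to 1283 to 3288 CPM over 17, most of the last from apoeb (934 to 2620 CPM). A library with fewer cells of a type and one with less RNA per cell cannot be told apart in such pools. No transcript lengths were at hand, so a level here is a share of reads, a longer transcript gives more of them, and the order of 2 genes by CPM need not be the order of their transcripts.

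Most potassium channel genes gave few reads. At least 1 CPM in at least 2 libraries, the condition for testing, was reached by 59 members (47.6%), beside 53.8% of all IDs and 62.2% of IDs with a symbol, and 36 members (29.0%) reached 1 CPM in all 4 libraries, beside 46.9% of all IDs. Only 9 members had a mean of at least 10 CPM, 52 lay between 1 and 10 CPM, and 63 lay under 1 CPM. The 124 members, called the family from here on, took 699, 270.2, 307 and 319 CPM in B1 to B4. Of that, 9 members held more than 50%. The level of each tested gene was compared with the median tested gene, 12.6 CPM, called the reference level. By edgeR's quasi-likelihood test at a Benjamini-Hochberg adjusted p under 0.05, 3 of 59 members lay above it, beside 36.8% of all tested genes, and 38 of 59 (64.4%) lay below it, beside 33.2% of all tested genes. The median tested member lay at a log2 level of -1.97, against 0 for all tested genes. The 3 members above were KCNJ10, kcnc4 and kcnn3.

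**Figure D1:**
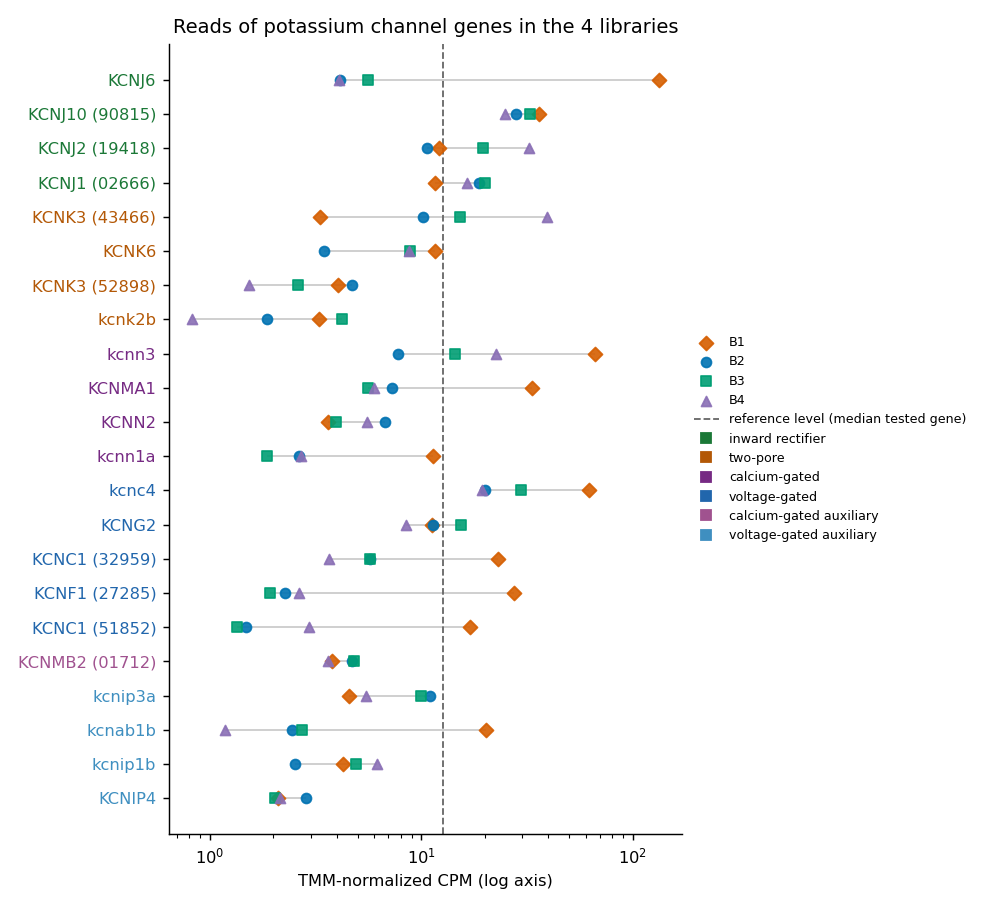
TMM-normalized CPM on a log axis of 22 channel genes named by rule, 1 point per library, with the reference level of 12.6 CPM as a dashed line; digits in brackets are the end of the Ensembl ID where members share a symbol. KCNJ10 and kcnc4 lie right of the line in all 4 libraries, and B1 stands far to the right for KCNJ6, KCNF1 and kcnab1b.

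Among inward rectifiers, 4 genes had a mean above the reference level and only KCNJ10 passed. KCNJ10 (ENSDARG00000090815), in mammals the main inward rectifier of astrocytes and a carrier of potassium buffering, gave 35.9, 28.1, 32.7 and 25.0 CPM in B1 to B4. Its values lay close together, at 30.4 ± 4.86 CPM (all such values are mean ± SD over n = 4 libraries), and its log2 level was 1.27 ± 0.20 (SE) against the reference (edgeR adjusted p = 0.000929). It was highest in B1. The radial glia list summed to 23845 CPM in B1 and at least 39640 CPM in the others. Of its 15 IDs 2 were highest in B1, beside 36% of all tested genes. Without the most abundant ID, of GLUL, the list summed to 17315 CPM in B1 and 20801 to 24832 CPM in the others. SOX2 was 1 of the 2, at 1453 CPM in B1 and 108 to 165 CPM elsewhere, and the other was AQP4, at only 0.410 CPM in B1. The abundant IDs did not move together. FABP7 (ENSDARG00000007697) gave 1570 CPM in B1 and 7139 to 11475 CPM elsewhere. SLC1A2 (ENSDARG00000102453) gave 10577 CPM in B1 and 6563 to 11802 CPM elsewhere, so the order of the sums depends on a few IDs. Which cells gave the KCNJ10 reads was not tested.

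KCNJ2 (ENSDARG00000019418), a strong rectifier that holds the resting potential of muscle and endothelial cells, gave 12.1, 10.6, 19.6 and 32.2 CPM in B1 to B4. KCNJ1 (ENSDARG00000002666), the secretory potassium channel of the mammalian kidney tubule, gave 11.7, 18.8, 20.1 and 16.5 CPM. Both lay above the reference level in B3 and B4 and under it in B1, and neither passed with all 4 libraries (log2 0.56 and 0.41, edgeR adjusted p = 0.127 and 0.125). Without B1 both passed, at log2 0.73 and 0.55 (edgeR adjusted p = 0.0412 and 0.00794). KCNJ13, found in mammalian choroid plexus and retinal pigment epithelium and known in zebrafish for a role in adult pigment stripes, stood at 9.65 ± 2.49 CPM and did not pass.

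KCNJ6, which encodes a G protein-gated subunit that slows firing in neurons, had the highest mean of the 124 members, and this rested on B1. It gave 133 CPM in B1 and 4.14, 5.61 and 4.1 CPM in B2, B3 and B4. The mean of 36.8 ± 64.4 CPM did not pass (log2 1.54 ± 0.91, edgeR adjusted p = 0.104), and without B1 the gene lay below the reference level (log2 -1.45, edgeR adjusted p = 0.00248). The 2 IDs of KCNJ3, its partner subunit gene, also had their highest value in B1. ENSDARG00000062217 gave 8.85 CPM there and 0.866 to 1.73 CPM elsewhere, and ENSDARG00000077165 gave 4.13 CPM there and 0 to 1.71 CPM elsewhere. The other G protein-gated subunit genes were near the floor, with KCNJ9 at 0.153 ± 0.289 and KCNJ5 at 0.101 ± 0.183 CPM.

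The ATP-sensitive channel has a kcnj pore and a sulfonylurea receptor. Its pore gene kcnj11 gave 1.41, 0.596, 1.68 and 4.83 CPM in B1 to B4 and lay below the reference level (log2 -2.57, edgeR adjusted p = 0.0101). The pericyte marker KCNJ8, the alternative pore and not a member here, stood at 11.3 ± 2.09 CPM, and KCNE4, an auxiliary subunit gene, at 319 ± 424 CPM with 955 CPM in B1. Of the 11 tested inward rectifiers 5 (45.5%) lay below the reference level, beside 33.2% of all tested genes. The 5 were kcnj11, kcnj12a, kcnj19a, kcnj19b and the more abundant KCNJ3. No count was found in any library for KCNJ15, for KCNJ16, which in mammals pairs with KCNJ10 in glia, for the second KCNJ2 ID or for 1 of the 7 KCNJ1 IDs, which allows up to 0.0751 to 0.0879 CPM by library.

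Two-pore channel genes were led by KCNK3, an acid-sensitive leak channel gene. Its ID ENSDARG00000043466 gave 3.31, 10.2, 15.3 and 39.3 CPM in B1 to B4. The spread was wide, 17.0 ± 15.6 CPM, with B1 lowest and B4 highest, and the level did not pass (log2 0.43 ± 0.51, edgeR adjusted p = 0.447). Without B4 it was -0.48.

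KCNK6, a weakly rectifying leak channel gene, gave 11.7, 3.47, 8.88 and 8.78 CPM and did not pass (log2 -0.62, edgeR adjusted p = 0.139). The other 5 tested two-pore IDs lay below the reference level and 0 of 7 lay above it, whether by edgeR (with or without adjustment of p), by DESeq2 or by limma-voom. They were the second KCNK3 ID (ENSDARG00000052898) at 3.23 ± 1.43 CPM, kcnk2b, a stretch- and lipid-gated channel gene, at 2.55 ± 1.5 CPM, both KCNK5 IDs at 2.11 ± 0.670 and 2.09 ± 0.832 CPM, and KCNK10 (ENSDARG00000062849) at 1.57 ± 1.73 CPM. The 14 two-pore genes not tested had means of at most 0.768 CPM.

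The calcium-gated class was small and mostly detected among its kcnn and kcnma genes. kcnn3, a small-conductance channel gene, gave 66.6, 7.75, 14.4 and 22.6 CPM in B1 to B4. B2 lay under the reference level and B1 far above it, with a log2 level of 1.14 ± 0.49 (edgeR adjusted p = 0.0475). The call was lost without B1 (log2 0.24), B3 (1.27) or B4 (1.14), by limma-voom (0.82), with DESeq2 size factors (1.16) and with a reference taken from genes at 1 CPM in all 4 libraries (0.81), and its adjusted p ran from 0.0261 to 0.438. KCNMA1, the large-conductance channel gene of smooth muscle and neurons, gave 33.4 CPM in B1 and 7.31, 5.59 and 6.01 CPM in the others. Its level was log2 0.05 ± 0.49 with all libraries (edgeR adjusted p = 0.933) and -1.0 without B1, where it lay below the reference level (edgeR adjusted p = 0.00548).

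KCNN2, another small-conductance gene, was even between pools, at 3.60, 6.72, 3.94 and 5.56 CPM, and lay below the reference level (log2 -1.35, edgeR adjusted p = 0.00754). kcnn1a gave 11.3 CPM in B1 and at most 2.7 CPM elsewhere (log2 -1.45, edgeR adjusted p = 0.0532). It passed as low in 5 of 9 alternatives, among them DESeq2, limma-voom and the fit without B1, where its log2 level was -2.39. The 5 genes not tested were kcnn4, the intermediate-conductance channel gene, at 0.640 ± 0.717 CPM, kcnn1b at 0.552 ± 0.443 CPM, and the 3 sodium-activated kcnt genes at means of up to 0.961 CPM.

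Voltage-gated genes were the largest class, with 29 of 51 (56.9%) tested, beside 53.8% of all IDs. Of the 29, 21 (72.4%) lay below the reference level, beside 33.2% of all tested genes. kcnc4, of the subfamily that closes quickly and serves fast firing in neurons, was the 1 gene above. It gave 62.3, 19.9, 29.6 and 19.4 CPM in B1 to B4, above the reference level in all 4 libraries (log2 1.38 ± 0.33, edgeR adjusted p = 0.00481). Without B1 it still passed, with an adjusted p of 0.000436 to 0.0207 over the alternatives.

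Among other kcnc genes, both KCNC1 IDs had B1 apart from the rest, and KCNC2 was lowest in B1 (1.79 CPM, against 2.63 to 3.15 CPM). KCNC1 ENSDARG00000032959 gave 23 CPM in B1 and 3.68 to 5.74 CPM elsewhere. KCNC1 ENSDARG00000051852 gave 17.0 CPM in B1 and 1.34 to 2.95 CPM elsewhere. Neither passed with all libraries (edgeR adjusted p = 0.475 and 0.196), and both lay below the reference level without B1 (log2 -1.32 and -2.71).

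The kcnf and kcng genes encode silent subunits that form no channel alone and alter those of the kcnb group. KCNG2 was the steadiest of the more abundant voltage-gated genes, at 11.2, 11.4, 15.5 and 8.48 CPM (log2 -0.12 ± 0.23, edgeR adjusted p = 0.665). KCNF1 (ENSDARG00000027285) gave 27.5 CPM in B1 and 2.27, 1.93 and 2.63 CPM in the others. KCNG4 (ENSDARG00000062967) gave 8.70, 13.2, 4.02 and 3.53 CPM. Of the kcnb genes that these subunits join, KCNB2 stood at 1.27 ± 0.886 CPM and kcnb2a at 1.16 ± 0.402 CPM. KCNF1 did not pass with all libraries (edgeR adjusted p = 0.522) and lay at log2 -2.47 without B1.

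KCNQ3, which encodes a subunit of a slow current that limits repetitive firing of neurons, was carried by B1. It gave 14.4 CPM in B1 and 1.00, 0.670 and 0.375 CPM in the others. kcnq5a showed the opposite order, with 0.938 CPM in B1 and 2.93 to 5.91 CPM elsewhere, while KCNQ5 (ENSDARG00000069953) gave 7.76 CPM in B1 and 2.06 to 3.40 CPM elsewhere. The KCNQ1-named IDs, kcnq1.1 and kcnq1.2, were not tested, and kcnq1.1 reached 5.93 CPM in B2 alone.

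The 3 kcnd genes, which encode fast transient channels, were all tested and below the reference level, with KCND3 at 5.36 ± 1.88, KCND2 at 3.23 ± 3.78 and kcnd1 at 2.92 ± 1.55 CPM. The kcna genes of the Shaker group were also low. KCNA4 stood at 4.58 ± 3.80 CPM with 10.3 CPM in B1, and the 4 tested kcna IDs lay below the reference level. Of 12 kcnh genes 5 were tested and 5 lay below, among them kcnh6a at 2.44 ± 0.921 CPM and KCNH2, the repolarising channel gene of the heart, at 1.86 ± 0.864 CPM. None of the 2 kcns and 3 kcnv genes, which encode further silent subunits, was tested.

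Among auxiliary subunits of the 124 members, kcnip3a had the highest mean, while KCNE4, which was left out, stood at 319 ± 424 CPM. The following values are those of kcnip3a. Its product is a calcium-binding partner of kcnd channels that is also known in mammals as a transcriptional repressor. It gave 4.54, 11, 9.94 and 5.48 CPM in B1 to B4 and did not pass (log2 -0.71, edgeR adjusted p = 0.0871). kcnab1b, which encodes a partner of kcna channels, gave 20.3 CPM in B1 and 2.44, 2.74 and 1.18 CPM in the others. It did not pass with all libraries (edgeR adjusted p = 0.292) and lay at log2 -2.57 without B1. kcnip1b at 4.47 ± 1.53 CPM and KCNIP4 (ENSDARG00000088100) at 2.29 ± 0.375 CPM lay below the reference level, as did KCNMB2 (ENSDARG00000001712), the inactivating partner of the large-conductance channel, at 4.22 ± 0.606 CPM.

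**Figure D2:**
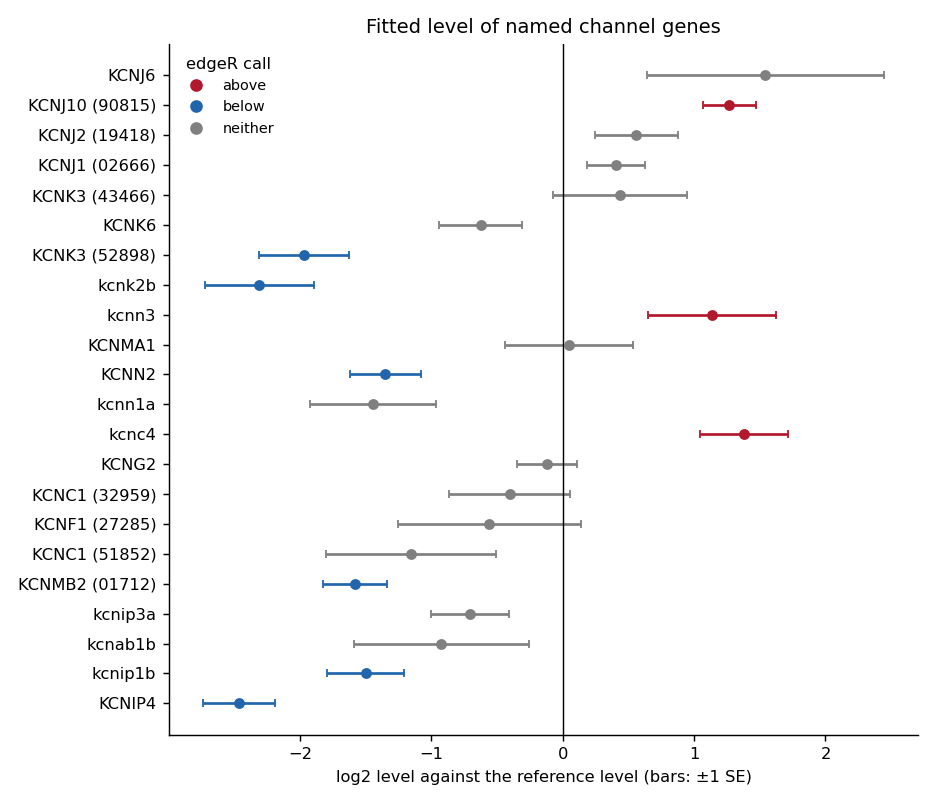
Fitted log2 level of 22 named genes against the reference level of 12.6 CPM, with bars of 1 SE over 4 libraries and colours for the edgeR call. KCNJ10, kcnc4 and kcnn3 lie above, and the bars are widest for KCNJ6 and KCNF1, both carried by B1.

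Classes were compared by the summed reads of their genes within each library, without a test, since the members were chosen with earlier results known. These sums depend on how many genes a class has and how long their transcripts are. KCNJ8 (14.3, 10.9, 9.66 and 10.3 CPM in B1 to B4) is not in the inward rectifier sum, and a sum with it was not compared. Voltage-gated genes held 38.5, 39.8, 33.8 and 28.6% of the family's reads in B1 to B4, and inward rectifiers 33.3, 29.6, 32.8 and 32.1%. The 2 classes differed by a log2 of -0.13 ± 0.25 (SD), inward rectifier minus voltage-gated, which is less than the spread between libraries, and the inward rectifiers were higher in 1 of 4. Without the silent subunits the difference was 0.28. By the median tested gene of each class within a library it was 1.09 on average. By mean CPM over 4 libraries the median tested genes lay close, at 3.15 CPM for inward rectifiers and 2.92 CPM for voltage-gated genes. Over all members, tested or not, the medians were 0.132 and 1.27 CPM, the opposite order.

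Inward rectifiers were higher than two-pore genes in 4 of 4 libraries (log2 1.58 ± 0.81) and higher than calcium-gated genes in 4 of 4 (1.44 ± 0.36). By the median of the tested genes the second difference was -0.79, so that order holds for sums alone. Two-pore genes were lower than voltage-gated genes in 4 of 4 libraries (-1.71 ± 0.98), and calcium-gated genes were too (-1.57 ± 0.45). Both signs turned with medians of the tested genes taken within each library (0.19 and 1.88). By mean CPM over 4 libraries the sign for two-pore genes did not turn, with median tested genes at 2.55 CPM and, for voltage-gated genes, 2.92 CPM. Over all members, tested or not, the medians were 0.445 CPM for two-pore, 0.961 CPM for calcium-gated and 1.27 CPM for voltage-gated genes. Two-pore and calcium-gated genes did not differ beyond the spread (-0.14 ± 1.07). By sums the two-pore genes were higher in 3 of 4 libraries and lower in B1 (-1.71), and without B1 the difference was 0.38, while by medians it was -1.69 ± 0.84 with the two-pore genes lower in 4 of 4.

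The shares of classes moved between libraries. Two-pore genes took 5.20, 9.87, 13.3 and 19.0% of the family's reads in B1 to B4. Their sums were 36.3, 26.7, 40.8 and 60.4 CPM, so B1 was lowest in share and not in sum. Calcium-gated genes took 17.0% in B1 and 9.63, 9.37 and 12.5% in B2 to B4. The leading gene was kcnn3 and kcnc4 in all 4 libraries for the calcium-gated and voltage-gated classes. In the inward rectifiers it was KCNJ6 in B1, KCNJ10 in B2 and B3 and KCNJ2 in B4, and in the two-pore class KCNK6 in B1 and KCNK3 in the others.

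**Figure D3:**
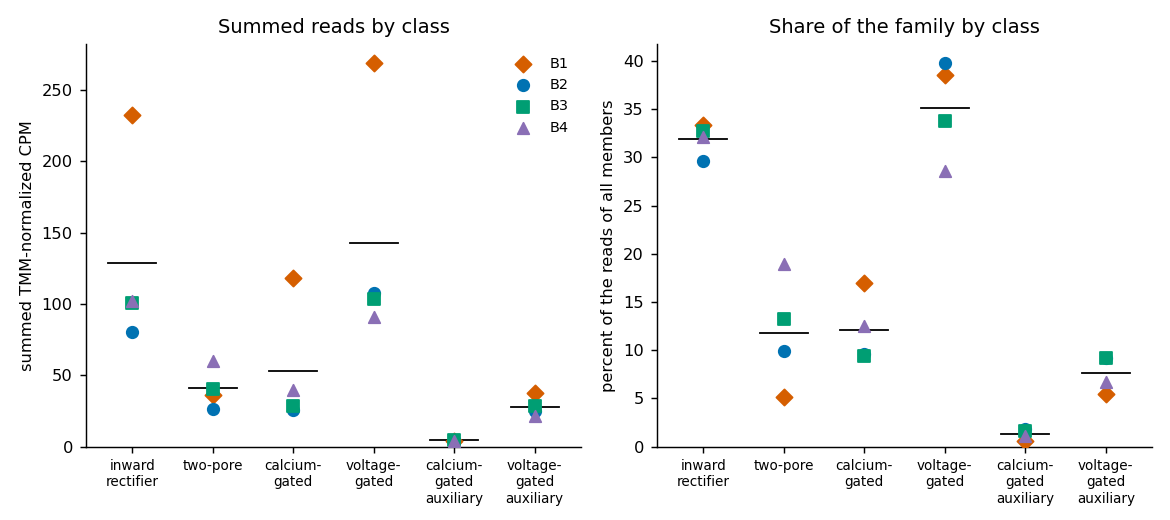
Left, summed TMM-normalized CPM of each class in each library, with the mean of 4 as a line; right, the share of the family's reads in percent. B1 is highest in the inward rectifier, calcium-gated and voltage-gated sums, and lowest in the two-pore share. KCNJ6 alone gave 57.3% of the inward rectifier sum in B1.

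B1 held 2.34 times the family's mean reads in B2 to B4, and the genes differed widely in this. Of the 59 tested members 28 (47.5%) were highest in B1, beside 36% of all tested genes. In 19 (32.2%) B1 was over 2 times the highest of the other libraries, beside 15.1% of all tested genes, and in 2 (3.39%), KCNK3 (ENSDARG00000043466) and kcnq5a, it was under 0.5 times the lowest, beside 15.8%. The 19 were 11 of 29 voltage-gated, 4 of 11 inward rectifier, 3 of 4 calcium-gated and 0 of 7 two-pore genes, and 1 of 7 voltage-gated auxiliary genes. The fold of B1 over the mean of the others was 28.9 for KCNJ6, 21.2 for KCNQ3, 12.1 for KCNF1 and 9.59 for kcnab1b. The median log2 difference of B1 from the mean of the others was 2.26 in the calcium-gated class, 0.81 in the voltage-gated, 0.59 in the two-pore and 0.34 in the inward rectifier class, against -0.12 for all tested genes.

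Marker lists were also compared between B1 and the other libraries. Counts of IDs highest in B1 are to be read beside 36% of all tested genes, and the lists also hold untested IDs. The 4 of 11 endothelial and 7 of 19 pericyte IDs given below lie near that share. The neuron list summed to 879 CPM in B1 and 183 to 312 CPM in the others, with 15 of 18 IDs highest in B1 and no ID at 0 throughout. The endothelium list summed to 333 CPM in B1, 240 CPM of it from CLDN5, and 51.9 to 91.2 CPM in the others, with 4 of 11 IDs highest in B1. The lymphatic and muLEC list summed to 352 CPM in B1 and 196 to 274 CPM in the others, and the smooth muscle list to 472 CPM in B1 and 602 to 910 CPM in the others. The pericyte list summed to 2239 CPM in B1 and 1101 to 1802 CPM in the others, with 7 of 19 IDs highest in B1. KCNE4 gave 955 CPM of the B1 sum, and without it the list summed to 1284 CPM in B1 and 1003 to 1694 CPM in the others. The oligodendrocyte list summed to 2379 CPM in B1 and 1407 to 4061 CPM in the others, with 6 of 10 IDs highest in B1. In B2 mbpa alone gave 2595 CPM, and without it the list summed to 2017 CPM in B1 and 675 to 1466 CPM in the others. The part of these cells in the channel values of B1 was not tested. Without B1, 50 members were tested, 4 lay above the reference level (KCNJ10, KCNJ1, KCNJ2 and kcnc4) and 39 below it, beside 41.7% and 38.3% of all genes tested in that fit. In the mean of B2 to B4 the most abundant members were KCNJ10, kcnc4, KCNK3, KCNJ2 and KCNJ1, and KCNJ6 was number 15.

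**Figure D4:**
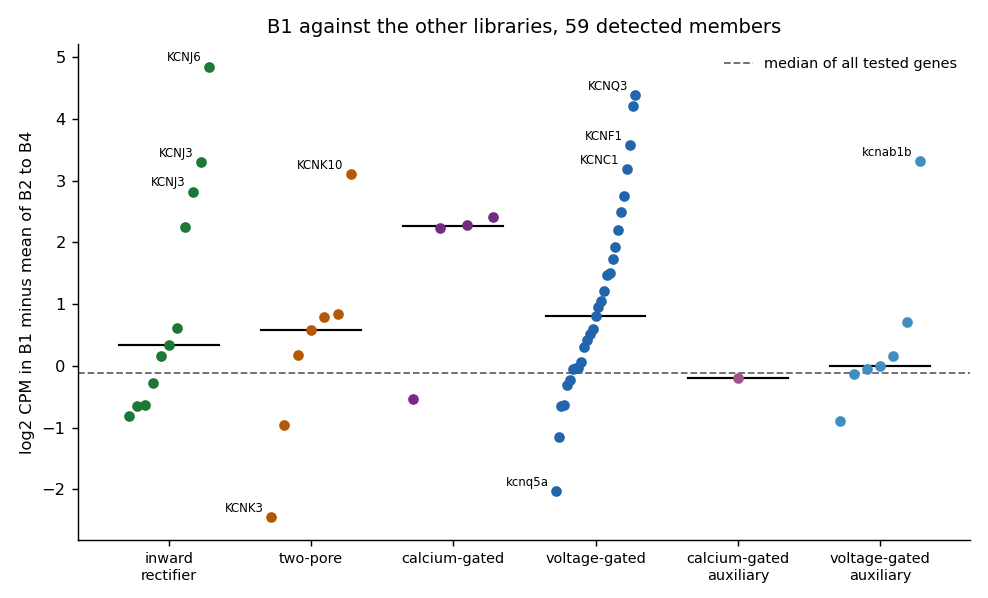
Difference between B1 and the mean of B2 to B4 in log2 CPM (prior count 2) for the 59 tested members by class, 1 point per gene, with the class median as a line and the median of all tested genes, -0.12, dashed. KCNJ6 and KCNQ3 lie highest, and KCNK3 and kcnq5a lowest.

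The spread between pools was wider for the tested members than for all tested genes, with a median coefficient of variation of 58.9% against 38.4%. The biological coefficient of variation of edgeR sets counting noise aside and also draws each gene toward a trend shared by all genes. Its medians were nearer, 0.568 against 0.477, and the part of either step in this was not tested. The members also lay lower, at a median mean of 3.23 CPM against the reference level of 12.6 CPM, and level was not matched in either comparison. In 14 of the 59 tested members the SD exceeded the mean, and 12 of these were highest in B1. No share over all tested genes was counted for this, so whether it sets the members apart was not tested. The steadiest were kcnab2a (9.49%), KCNMB2 (14.3%), KCNJ10 (16.0%), KCNIP4 (16.4%) and KCNJ1 (22.1%), and the least steady were KCNJ6 (175%) and KCNQ3 (167%).

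Many zebrafish genes are kept as duplicates from a genome duplication in the fish lineage. Of the 124 members 77 share a channel name with another ID. They form 36 groups, 35 of them pairs, and how the copies in a group arose was not tested. In 18 groups 1 ID was tested, in 11 pairs both were, and in 7 groups none was. Reads of near-identical copies can be split by the counting, so these values are uncertain where copies are alike. The 7 KCNJ1 IDs were uneven, with 98.2% of their reads on ENSDARG00000002666 and a mean of at most 0.234 CPM on any other. The KCNJ10 pair was as uneven, 30.4 CPM against 0.0910 ± 0.0694 CPM for ENSDARG00000105022, whose values lay near or under the counting floor, and the more abundant ID was higher in 4 of 4 libraries. KCNF1, KCNG4 and KCNMB2 likewise had 99.2, 98.9 and 99.8% of their reads on 1 ID.

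Other pairs were shared. The KCNC1 IDs differed by 1.18 ± 0.93 log2 units (SD, log2 CPM with a prior count of 2) with the same ID higher in 4 of 4 libraries, and the kcnip3 pair by 2.80 ± 0.90, also in 4 of 4. Of the 11 pairs with both IDs tested, these 2 kept their order in all libraries. KCNK3 changed order, its second ID being the higher in B1, with a difference of 2.00 ± 2.10. The KCNQ5 pair (0.33 ± 1.80), the KCNK5 pair (0.04 ± 0.62) and the KCNAB2 pair (0.14 ± 0.89) differed by less than their spread.

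**Figure D5:**
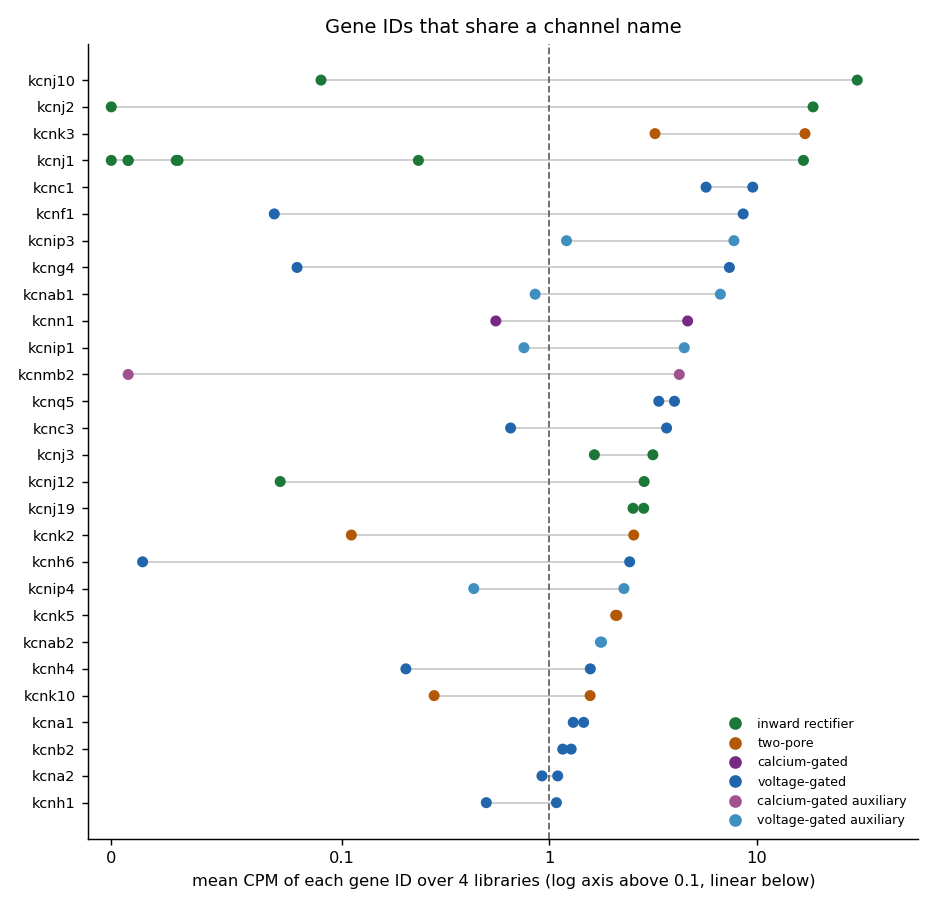
Mean CPM over 4 libraries of every gene ID in 28 groups that share a channel name and have a tested ID, with the 1 CPM mark dashed; the axis is linear below 0.1 CPM and logarithmic above. KCNJ10, KCNJ2, KCNJ1 and KCNF1 have 1 ID far to the right of the rest, while the KCNK5 and KCNAB2 pairs coincide.

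Genes that work with these channels, and some other ion channel genes, were counted in the same fit from lists chosen by function. These counts are to be read beside the 36.8% of all tested genes above the reference level and 33.2% below it. Of 15 tested genes of the sodium-potassium pump, which builds the gradient that the channels use, 10 lay above the reference level and 2 below, with a median log2 level of 1.74. Of 4 tested cotransporters that carry potassium with chloride 3 lay above, slc12a2 at 61.5 ± 22.2, SLC12A4 at 39.1 ± 9.44 and SLC12A7 at 23.5 ± 7.84 CPM, and 1 below. DPP6 (ENSDARG00000024744), a partner of kcnd channels, was above at 68.6 ± 15.0 CPM, where the 3 kcnd pore genes lay below, and its list had 1 above and 1 below of 3. Of 3 sulfonylurea receptor IDs, ABCC8 ENSDARG00000051879 lay above at 41.9, 22.0, 41.3 and 25.7 CPM (log2 1.37 ± 0.25, edgeR adjusted p = 0.00136). ABCC9, the receptor of mural cells, stood at 16.0 ± 4.92 CPM without passing, and the other ABCC8 ID lay below. All 3 tested HCN channel IDs lay below. Of 4 tested genes in a list of other ion channels 2, TPCN1 and TMEM63C, lay above with none below.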

How the data were processed

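Unnormalized counts of reads for each Ensembl gene were deposited by the authors, 1 column per library, as were YuGene values of the same libraries, which were not used. The submitters' processing notes name bcl2fastq, R 3.2.2 and genome build GRCz10; aligner, counting tool, annotation and strand setting were not given in the sources used here. All 4 columns match no sample number and served as unnumbered libraries of the single group, and 0 columns were left out. They differ well beyond sampling noise. Symbols came from a table of Ensembl IDs, which named 26269 IDs; 45 members share a symbol exactly.

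Counts were scaled by TMM (edgeR 4.0.16, R 4.3.3). Genes at 1 CPM or more in at least 2 libraries (17283) were fitted with a single mean by edgeR's quasi-likelihood method, and the level was tested, two-sided, against their median fitted CPM, with the F statistic formed as edgeR forms it and Benjamini-Hochberg adjustment over all tested genes. The test was checked on simulated counts with the same spread for all genes and libraries, so the check does not cover a library that stands apart as B1 did. A level per kilobase had been planned, with no call for a gene that had no length. The reference tables held no transcript lengths, so a version without length correction became the test. The calls above and below the reference level thus depart from that plan and compare shares of reads. The named genes are the 4 most abundant tested members of each pore class and of the voltage-gated auxiliaries, the first calcium-gated auxiliary, the 5 members of highest tagwise variation at 5 CPM or more, and copies of these, of which 22 and 16 IDs are given, since a few items are not reported here; other members in the text were chosen after their values were seen, to account for their subfamily. Of 154 entries of the marker and companion lists 13 found no ID and 42 were matched without their copy suffix. Members, classes and lists were chosen with earlier results of these data known. DESeq2 1.42.0, limma-voom (limma 3.58.1), DESeq2 size factors, other filters and references, class definitions and leaving out each library were the alternatives. Counting limits cover counting error only, since reads of amplified RNA that carry no molecular identifier do not stand for separate molecules.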

Additional observations from a re-analysis of the deposited data

Results flagged for a closer look

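In the named members and the class sums, 1 library was looked for that stood apart from the others. Its gap to the nearest neighbour, as a share of the range of the 4 values, had to exceed the 95% critical value of Dixon's ratio. For normally distributed values chance gives about 1 in 20. That rate does not hold for the named genes chosen for their high variation, among them KCNJ6, KCNF1, kcnab1b and KCNC1 ENSDARG00000051852. The other named genes were chosen by mean CPM over 4 libraries, which a high B1 raises, so the rate need not hold for them either. B1 was such a library, on the high side, for KCNJ6 (133 CPM, next 5.61), KCNMA1 (33.4, next 7.31), kcnn1a (11.3, next 2.7), KCNF1 (27.5, next 2.63) and kcnab1b (20.3, next 2.74). The same held for both KCNC1 IDs, at 23 CPM (next 5.74) for ENSDARG00000032959 and 17.0 CPM (next 2.95) for ENSDARG00000051852. B2 was apart for KCNIP4 (2.84 CPM, next 2.15), a small difference in size. Among sums, B1 was apart for the inward rectifiers (233 CPM, next 102), the calcium-gated genes (119, next 39.8), the voltage-gated genes (269, next 108) and the whole family (699, next 319). In B1 KCNJ6 gave 57.3% of the inward rectifier sum, kcnn3 56.2% of the calcium-gated and kcnc4 23.2% of the voltage-gated sum. The inward rectifier result is thus not separate from that of KCNJ6. Over all genes tested 16.6% had a library apart and 11.7% had B1 apart and high, and among the 59 tested members the shares were 23.7% and 22.0%.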

How the results depend on the processing

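No paired analysis was possible because the series has a single group. The per-kilobase fit was not run, since no transcript lengths were at hand. Members above the reference level numbered 2 to 4 and members below it 30 to 44 over the alternatives, beside 31.4 to 41.7% and 25.7 to 39.5% of all genes tested, except that without a filter on low counts 100 of 120 tested members were below, beside 59.8% of all genes, and 22.9% of all genes were above. Tested members were 72 at a minimum of 0.5 CPM and 16 at 5 CPM, and 50 to 56 with 1 library left out. Class differences (log2) were also taken by the median of the tested genes within each library. They were -0.79 for inward rectifier minus calcium-gated and 1.09 for inward rectifier minus voltage-gated. For two-pore minus calcium-gated the value was -1.69, for two-pore minus voltage-gated 0.19 and for calcium-gated minus voltage-gated 1.88. Without the most abundant member of each class, inward rectifier minus calcium-gated was 2.06, two-pore minus calcium-gated 0.0786 and calcium-gated minus voltage-gated -2.17. Inward rectifier minus voltage-gated was 0.28 without kcnt and silent subunits and -0.41 with auxiliary subunits added. Two-pore minus calcium-gated ran from -0.39 to 0.38 with 1 library left out. KCNJ6 stood at log2 -0.13 by limma-voom and -1.45 without B1, KCNK3 (ENSDARG00000043466) at -0.48 without B4, and KCNMA1 at -0.28 by limma-voom, -0.28 with the higher reference and -1.0 without B1. With 1 library left out their levels ran from -1.45 to 1.85, from -0.48 to 0.78 and from -1.0 to 0.21. The cause of these turns was not tested beyond what leaving out a library shows. Of the alternatives run on the 23 tested named IDs, 176 kept side and direction, 15 passed in the same direction where the 4-library test did not, 6 lost the call, all of kcnn3, and 6 turned, 2 of which passed. Depth limits statements on the 14 members with at most 3 counts in every library.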
